A study of Mus musculus with 66 samples.

Results

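The assembly factors of the nucleolus were taken from the RNA table by gene symbol: the Nop, Utp, Nol, Noc, Rrp and Imp families and 13 further factors named one by one. The rule used names and no measured value, and it found 53 of the 9481 mouse transcripts in the table, for 51 of 8978 gene symbols. They were followed through organoids, which are 3-dimensional epithelial cultures, grown from mouse small intestine in 3 media. ENR medium holds epidermal growth factor, Noggin and R-Spondin and keeps a mixed culture. CV is ENR medium with CHIR99021 at 3 µM, which inhibits glycogen synthase kinase and so turns on Wnt signaling, and valproic acid at 1 mM, which inhibits histone deacetylases, and the labels name it as enriched for stem cells. EN is ENR medium without R-Spondin-1, the labels name it as depleted of stem cells and it carries neither compound. The study's methods also give a longer time in CV medium than in EN medium. In a comparison of EN with CV, loss of the Wnt enhancer, absence of both compounds and culture time thus cannot be told apart. The study's methods describe the organoids as carrying a GFP-DTR reporter at the Lgr5 locus, which all cultures shared. Each culture had 4 RNA-seq and 4 ATAC-seq libraries and 3 analysed libraries for each of the histone marks H3K27ac, H3K4me3 and H3K27me3. Nothing says that the libraries of a culture came from separate cultures, so p-values measure the spread between these libraries, which may be technical.

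A ribosome begins in the nucleolus, where RNA polymerase I transcribes the precursor of the ribosomal RNAs. Small nucleolar RNAs then guide box C/D particles, which methylate the ribose, and box H/ACA particles, which turn uridine into pseudouridine, while the small subunit processome folds and cuts the precursor and another set of factors builds the large subunit. In the intestine, dividing crypt cells need new ribosomes at each division, whereas enterocytes of the villus no longer divide.

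The RNA libraries held 5.631e+06 to 8.860e+06 expected counts without spike-ins, and 28883 to 37443 of these fell on the 53 transcripts in a CV or ENR library and 7697 to 11837 in an EN library. Levels are given as CPM, counts relative to a TMM-scaled library size, which serves to compare a transcript between libraries, or as TPM, which also corrects for length and serves to compare transcripts with each other. Differences are log2 fold changes from edgeR's quasi-likelihood test, with a standard error (SE), fitted across 9288 transcripts in all 12 libraries, and a transcript was called higher or lower at a Benjamini-Hochberg adjusted p under 0.01. Of the 53, 52 were tested. In these bulk samples, fewer cells of a type and less RNA per cell cannot be told apart. The 7 stem cell markers summed to 302 to 337 TPM in CV, 931 to 1019 TPM in ENR and 18.4 to 21.2 TPM in EN. They were thus lowest in EN, the culture named as depleted of stem cells. On this sum alone CV lay below ENR, although it is named as the enriched culture. Of the 7 markers 2 were called higher and 4 lower in CV than in ENR, with a median log2 fold change of -0.22. The paper also reports imaging of the Lgr5 reporter, in which Lgr5-positive cells dominated CV organoids, and which was not examined here. The 11 enterocyte markers summed to 19992 to 21098 TPM in CV, 10785 to 12473 TPM in ENR and 59168 to 66321 TPM in EN. The higher sum in CV than in ENR did not hold for most of them. In CV against ENR 4 were called higher and 6 lower, with a median log2 fold change of -0.31. In CV, ENR and EN, goblet markers summed to 1686 to 1807, 3059 to 3252 and 10530 to 12572 TPM and enteroendocrine markers to 33.6 to 54.6, 507 to 527 and 1333 to 1601 TPM. Paneth markers summed to 8256 to 9244, 22738 to 24795 and 5972 to 6445 TPM and tuft markers to 19.7 to 21.9, 17.4 to 19.8 and 30.5 to 41.4 TPM. Of the 4 tuft transcripts, 1 was called higher and 3 lower in CV than in ENR, with a median of -3.38. Over all transcripts 30.2% were called higher and 29.8% lower in CV than in ENR. The part of these cell types in the differences of the assembly factors was not tested. Markers of cells outside the epithelium, 5 of 8 found, summed to 2.84 to 4.02 TPM in CV, 6.45 to 7.76 TPM in ENR and 16.3 to 20.8 TPM in EN. Of these 5 transcripts, 2 were called higher and none lower in EN than in CV, with a median log2 fold change of 0.20. Of the 6 Paneth transcripts, 2 were called higher and 4 lower in EN than in CV. Over all transcripts 35.2% were called higher and 41.2% lower in that comparison.

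The assembly factors were far lower in EN than in both other cultures. Together the 53 transcripts took 0.395% to 0.401% of all TPM in the CV libraries, 0.400% to 0.406% in the ENR libraries and 0.105% to 0.124% in the EN libraries. The EN libraries lay below all others without overlap, and the mean share in CV was 3.41 times that in EN. Between CV and ENR the summed share hardly moved, with a ratio of the means of 0.992.

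**Figure D1:**
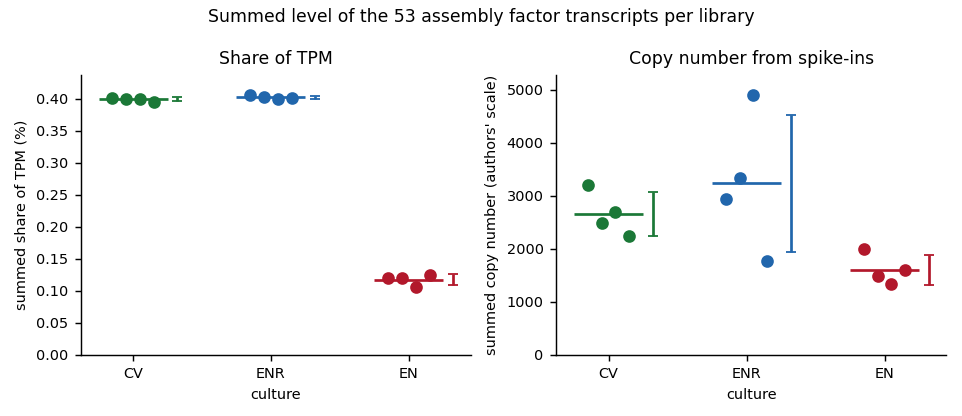
Summed level of the 53 transcripts in each library, as a share of TPM in percent (left) and as copy numbers that the authors scaled to spike-ins (right), for CV, ENR and EN. Points are libraries, horizontal lines the mean of 4 and error bars the SD. On the share of TPM, EN lies at 0.105% to 0.124% and the other cultures at 0.395% to 0.406%, and on copy numbers the EN libraries, 1337 to 1999, overlap the lowest ENR library at 1765.

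On the copy numbers that the authors derived from spike-ins, the sum of the 53 transcripts was 3196, 2476, 2699 and 2240 copies in CV, 2937, 3325, 4893 and 1765 in ENR and 1999, 1488, 1337 and 1590 in EN. EN stayed below CV without overlap on that scale, and it overlapped ENR, whose 4 libraries spread the most. On that scale the median over all tested transcripts rose by 0.62 (log2) from CV to EN, and with counts scaled to the spike-ins it was -0.49. Members are therefore given beside the median of all transcripts on the same scale. The share of all transcripts called is given only for the edgeR calls on TMM-scaled counts. Counts of calls on the other scales stand without it.

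Of the 52 tested transcripts, 48 were called lower and 3 higher in EN than in CV, that is 98.1% called. Over all transcripts 76.4% were called, 41.2% lower and 35.2% higher. The median log2 fold change of the members was -1.66, against -0.08 over all transcripts, and 38 members were called lower at a fold change of at least 2. In 48 members the 4 EN values lay below the 4 CV values, as they did for 41.6% of all transcripts, and in 3 above, against 34.9%. On the deposited copy numbers, tested with limma, 29 members were called lower and 3 higher, with a median of -0.95 against 0.62 over all transcripts.

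**Figure D2:**
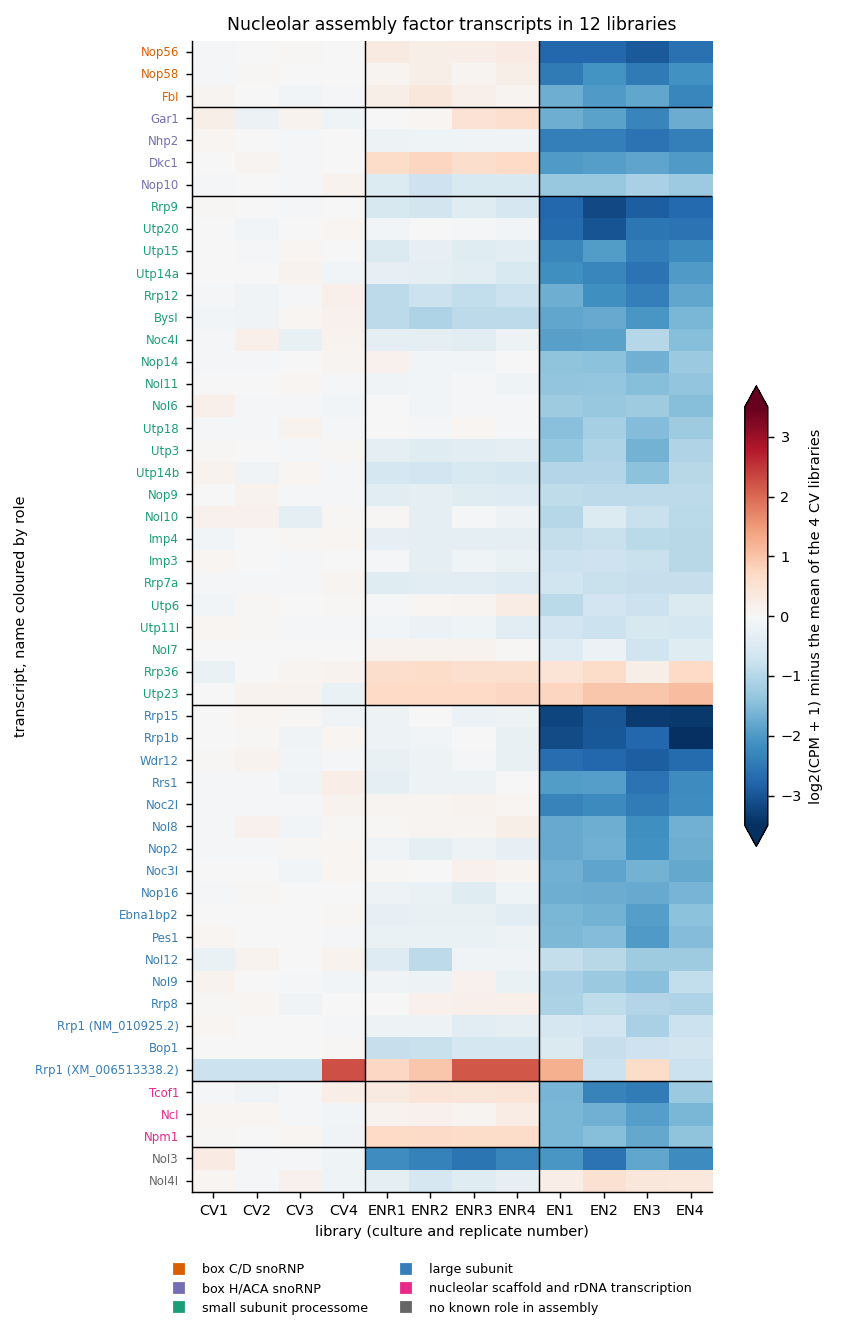
Each tested transcript (rows, names coloured by role) in each of the 12 libraries (columns), as log2(CPM + 1) minus the mean of the 4 CV libraries. Blue is lower and red higher than CV. The EN columns are blue in nearly every row, with Rrp36, Utp23 and Nol4l red.

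The 3 members among the core proteins of the box C/D particle, which methylates ribosomal RNA, all fell. Nop56, a scaffold protein of that particle (NM_024193.2), had 134, 138, 141 and 139 CPM in CV, 173, 160, 163 and 170 in ENR and 19.6, 19.7, 16.9 and 21.9 in EN. EN stood apart from both other cultures, and Nop56 fell from CV to EN by 2.81 on the log2 scale (SE 0.059, adjusted p = 1.33e-15). Its partner scaffold Nop58 fell by 2.31 (SE 0.073), with 230, 244, 238 and 233 CPM in CV and 41.8, 54.6, 41.7 and 53.4 in EN. Fibrillarin (Fbl), the methyltransferase of the particle, fell by 2.06 (SE 0.12), with 33.6, 32.03, 29.6 and 30.7 CPM in CV and 8.98, 7.28, 8.21 and 5.61 in EN. No CV and EN values of these 3 transcripts overlapped.

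All 4 proteins of the box H/ACA particle, which makes pseudouridine, fell as well. Dyskerin (Dkc1), the pseudouridine synthase, had 66.03, 71.4, 64.3 and 67.5 CPM in CV, 105, 113, 103 and 110 in ENR and 16.4, 16.9, 17.8 and 16.4 in EN. It was thus highest in ENR, and it fell by 2.00 (log2, SE 0.060, adjusted p = 7.87e-14) from CV to EN and by 2.68 (SE 0.059) from ENR to EN. Nhp2, which binds the guide RNA, fell by 2.51 (SE 0.057) and Gar1, needed for product release, by 2.59 (SE 0.27) from CV to EN. Gar1 rested on few reads, 42 to 58 expected counts in CV and 3 to 10 in EN. Nop10, the smallest protein of the particle, had 72.9, 76.7, 75.7 and 83.7 CPM in CV, 55.05, 46.1, 53.3 and 53.1 in ENR and 30.3, 30.2, 34.4 and 31.1 in EN. It was highest in CV, and its fall from CV to EN was -1.30 on the log2 scale (SE 0.069).

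In the small subunit processome, the particle that cuts and folds the 5′ part of the precursor, 21 of 23 transcripts were called lower in EN than in CV and 2 higher, with a median of -1.33. Rrp9, a protein that binds the U3 small nucleolar RNA, had 65.4, 63.4, 60.04 and 62.9 CPM in CV, 42.5, 40.3, 46.6 and 41.7 in ENR and 8.58, 6.21, 7.67 and 8.78 in EN. Its EN values were the lowest by far, at a log2 fold change of -2.98 against CV (SE 0.086, adjusted p = 4.40e-14). Utp20, a large scaffold protein, fell by 2.79 (SE 0.081), Utp15, a subunit of the complex that binds the nascent precursor first, by 2.28 (SE 0.080) and Utp14a, which activates a helicase of the particle, by 2.27 (SE 0.10). Rrp12 and Bysl, both needed for late steps and export of the small subunit, fell by 2.07 (SE 0.12) and 1.93 (SE 0.11).

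Other small subunit factors moved much less. The U3 proteins Imp3 and Imp4 fell by 0.82 (SE 0.071) and 0.90 (SE 0.058), Rrp7a by 0.78, Utp6 by 0.72, Utp11l by 0.67 and Nol7 by 0.44 on the log2 scale. On the deposited copy numbers Utp6, Utp11l and Nol7 were not lower, at 0.029, 0.083 and 0.35, and none of the 3 was called. The remaining falls of this group lay between -1.70 for Noc4l and -0.92 for Nol10. Utp14b, which fell by 1.14, lies within the gene Acsl3 and is a close copy of Utp14a, so reads of these genes may be shared and its value is uncertain.

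Against this trend stood Utp23 and Rrp36. Utp23, a small subunit factor that contacts a small nucleolar RNA, had 46.2, 51.1, 50.5 and 39.2 CPM in CV, 76.6, 76.6, 75.5 and 77.02 in ENR and 78.4, 92.7, 92.9 and 98.6 in EN. It was lowest in CV and rose to EN by 0.95 (log2, SE 0.082, adjusted p = 2.74e-08), the largest rise among the members. Rrp36, needed for early cuts of the precursor, had 19.1, 22.8, 23.9 and 24.5 CPM in CV, 35.2, 35.3, 33.9 and 33.5 in ENR and 31.5, 35.8, 26.04 and 36.9 in EN. Its EN values lay above those of CV and overlapped those of ENR, with a log2 fold change of 0.53 against CV (SE 0.10, adjusted p = 2.28e-04). With counts scaled to the spike-ins the rise of Rrp36 was 0.10 (adjusted p = 0.669), and with limma on log2(TPM + 1) it was 0.19 (adjusted p = 0.107).

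**Figure D3:**
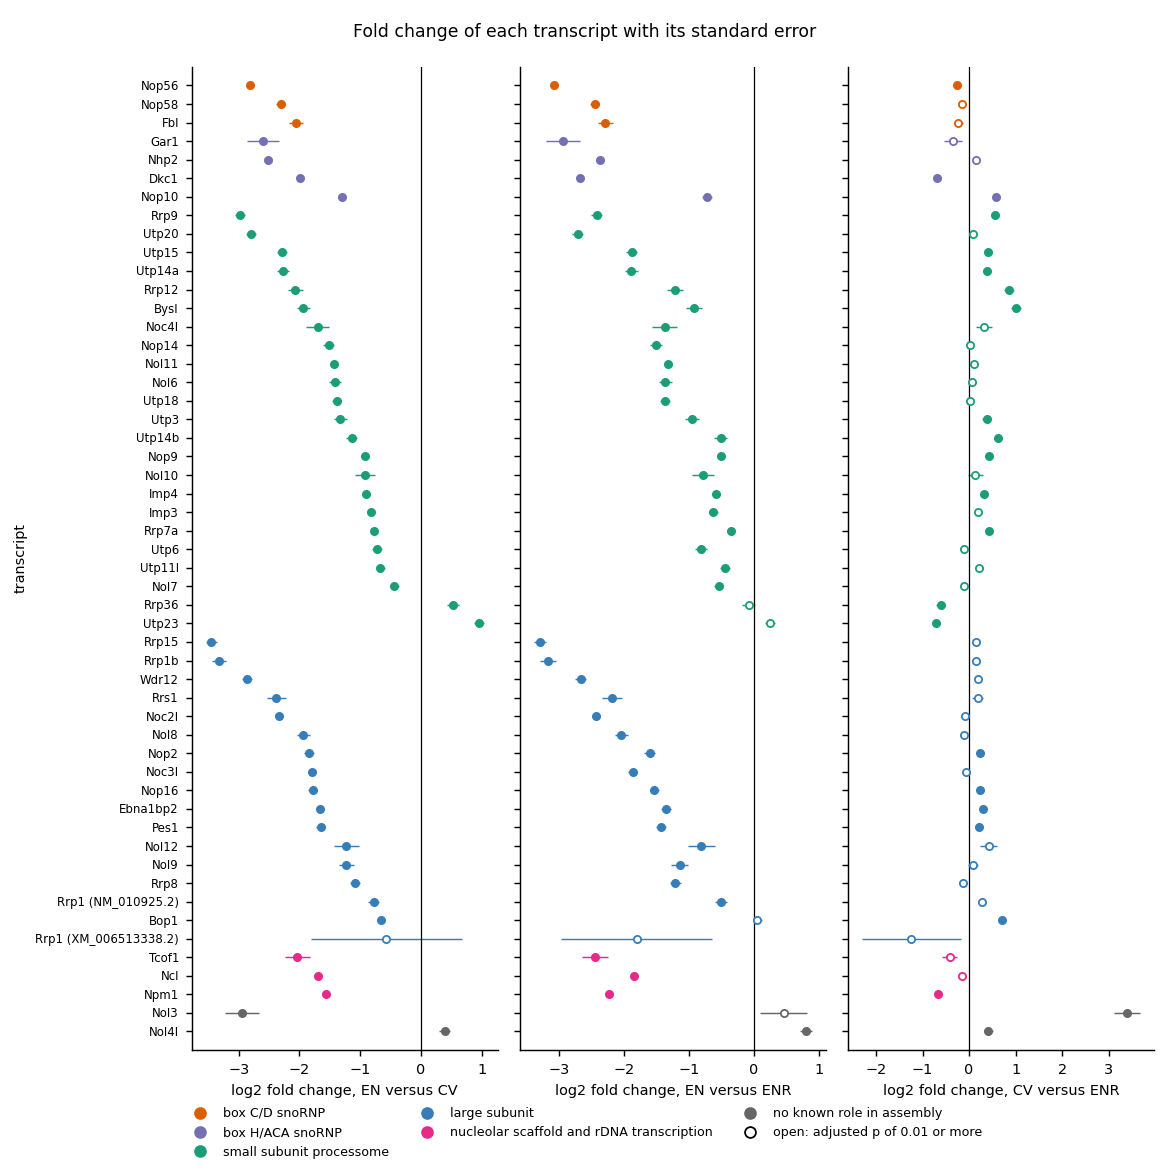
Log2 fold change (x axes) of each tested transcript (rows, coloured by role) for EN versus CV, EN versus ENR and CV versus ENR. Points are estimates, bars the standard error, and open points have an adjusted p of 0.01 or more. Nearly all points of the left and middle panels lie below 0, down to -3.45 for Rrp15, while the right panel scatters around 0 apart from Nol3.

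Of the 17 transcripts for large subunit factors, 16 were called lower in EN than in CV and none higher, and this group held the largest falls of all members. Rrp15 (NM_026041.2), which acts in early large subunit assembly, had 62.7, 65.00, 63.9 and 56.6 CPM in CV, 54.2, 60.9, 54.1 and 54.4 in ENR and 5.76, 6.85, 5.17 and 5.04 in EN. It fell 10.96-fold from CV to EN, -3.45 on the log2 scale (SE 0.091, adjusted p = 1.75e-14), and CV and ENR overlapped. Rrp1b, a nucleolar relative of Rrp1, had 49.7, 49.9, 45.1 and 50.97 CPM in CV, 43.02, 45.3, 48.1 and 41.02 in ENR and 4.69, 5.35, 6.42 and 3.46 in EN. It fell 9.99-fold from CV to EN (log2 -3.32, SE 0.12).

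Wdr12, Pes1 and Bop1 form a complex that is required for processing of the large subunit precursor, and the 3 transcripts fell by different amounts. Wdr12 had 64.01, 66.9, 57.7 and 58.9 CPM in CV, 50.95, 54.6, 58.5 and 51.6 in ENR and 8.98, 8.35, 7.49 and 8.78 in EN. Pes1 had 152, 143, 143 and 140 CPM in CV, 122, 123, 123 and 127 in ENR and 47.98, 49.5, 36.03 and 49.95 in EN. Bop1 had 72.1, 71.4, 71.4 and 74.9 CPM in CV, 41.1, 41.7, 47.4 and 46.6 in ENR and 51.1, 41.3, 43.5 and 46.1 in EN. Wdr12 thus fell the most from CV to EN, by 2.87 (log2, SE 0.084), Pes1 by 1.65 (SE 0.073) and Bop1 by 0.66 (SE 0.067). Between EN and ENR, Bop1 values overlapped and the log2 difference was 0.05 (SE 0.070, adjusted p = 0.522). On the deposited copy numbers Bop1 was 0.087 for EN versus CV and not called. The annotation of mm9 places 2 further coding genes across the Bop1 locus.

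Rrs1, which brings the 5S particle to the ribosome, fell by 2.38 (log2, SE 0.15) from CV to EN, and Noc2l, a partner of Noc3l in early large subunit assembly, by 2.34 (SE 0.059). Nop2, a methyltransferase of the large subunit RNA, fell by 1.84, Noc3l by 1.80, Nop16 by 1.78, Ebna1bp2 by 1.66 and Nol8 by 1.94. Smaller falls were measured for Nol12 (-1.23), Nol9 (-1.23), Rrp8 (-1.09) and the main transcript of Rrp1 (-0.78). A second Rrp1 transcript (XM_006513338.2) had 0, 0, 0 and 6.99 CPM in CV and was not called. The authors' counting splits reads between such transcripts of a gene, so its values are uncertain.

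The scaffold proteins of the nucleolus, which are abundant, fell as well. Npm1, a histone and ribosome chaperone that fills the outer layer of the nucleolus, was the most abundant member per length, at 1226 ± 54.6 TPM (SD, n = 4) in CV, 1742 ± 27.4 in ENR and 330 ± 35.7 in EN. It took 29.6% to 32.7% of the members' TPM in CV, 43.5% to 44.6% in ENR and 27.5% to 30.4% in EN. From CV to EN it fell by 1.57 (log2, SE 0.063) and from ENR to EN by 2.23 (SE 0.063). Npm1 has near-identical copies in the genome that this counting may not tell apart, and its second transcript, listed at 14.7 expected counts in CV replicate 2, 15.3 in ENR replicate 3 and 0 elsewhere, was the 1 member not tested.

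Nucleolin (Ncl), which binds ribosomal RNA precursors, fell by 1.70 (log2, SE 0.067) from CV to EN, with 227, 228, 210 and 203 CPM in CV and 71.4, 67.4, 56.5 and 70.4 in EN. Tcof1, which acts with RNA polymerase I, fell by 2.03 (SE 0.21), with 16.3, 15.5, 16.6 and 20.2 CPM in CV and 4.82, 2.57, 2.32 and 6.33 in EN. Their EN values lay below all CV and ENR values.

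The name rule also took in Nol3 and Nol4l, which have no known role in ribosome assembly. Nol3, a repressor of apoptosis, had 69, 54, 54 and 55 expected counts in CV, 7, 4, 3 and 6 in ENR and 8, 2, 8 and 6 in EN. It was thus high in CV alone, at a log2 fold change of 3.40 for CV versus ENR (SE 0.28, adjusted p = 4.24e-08). Nol4l had 23.3, 21.1, 24.5 and 20.00 CPM in CV, 17.7, 14.4, 16.4 and 18.1 in ENR and 26.3, 32.3, 29.3 and 28.9 in EN, with a log2 fold change of 0.39 for EN versus CV (SE 0.094, adjusted p = 0.00139) and 0.80 for EN versus ENR. With counts scaled to the spike-ins the difference of Nol4l between EN and CV was -0.034 and not called.

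Against ENR, the culture that shares its base medium with EN apart from R-Spondin-1 and has neither compound, most members were lower in EN as well. Of the 52 transcripts, 46 were called lower in EN and 1 higher (Nol4l), where 37.2% of all transcripts were called lower and 35.5% higher. The median of the members was -1.38, against -0.01 over all transcripts. The largest falls were those of Rrp15 (-3.30), Rrp1b (-3.18), Nop56 (-3.08) and Gar1 (-2.94). The 5 transcripts with no call were Bop1, Utp23, Rrp36, Nol3 and the second Rrp1 transcript. Utp23 lay just outside the threshold with a log2 fold change of 0.24 (adjusted p = 0.0106), and it was called without CV replicate 4 (adjusted p = 0.00297) or without EN replicate 1 (adjusted p = 0.00128). On the deposited copy numbers 20 were called lower and 4 higher, with a median of -0.44 against 0.88 over all transcripts. With counts scaled to the spike-ins 48 were called lower and none higher. The median on that scale was -1.90, against -0.52 over all transcripts, which were thus shifted down in EN as well. This comparison and that with CV share the EN libraries, so they are not independent.

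Between CV and ENR, both of which hold dividing cells, differences were small and went both ways. Of the 52 transcripts, 18 were called higher and 5 lower in CV, that is 44.2% called, where 60.0% of all transcripts were called, 30.2% higher and 29.8% lower. The median of the members was 0.15 (log2), against -0.01 over all. With counts scaled to the spike-ins 4 were called higher and 4 lower, with a median of 0.05 against -0.10 over all transcripts. On the deposited copy numbers 5 were called higher and none lower, with a median of 0.38 against 0.20 over all. The split between directions thus depends on the scaling.

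Among the transcripts higher in CV were Bysl at 1.00 (log2, SE 0.10), Rrp12 at 0.85 (SE 0.11), Bop1 at 0.71, Utp14b at 0.63, Nop10 at 0.57 and Rrp9 at 0.56. Rrp12 had 49.2, 46.3, 48.6 and 57.4 CPM in CV, 25.99, 29.3, 27.3 and 29.3 in ENR and 14.6, 10.5, 8.74 and 13.4 in EN, and Bysl had 24.4, 24.3, 27.4 and 29.6 CPM in CV, 13.6, 11.9, 13.5 and 13.6 in ENR and 6.70, 7.07, 5.71 and 8.06 in EN. For both, the 3 cultures stood apart in the order CV, ENR, EN, with no overlap between them. Of the 23 small subunit transcripts 10 were called higher in CV and 2 lower, and of the 17 large subunit transcripts 5 were called higher and none lower. These counts stand beside 30.2% higher and 29.8% lower over all transcripts, and the split over all members was 4 to 4 with counts scaled to the spike-ins.

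The 5 transcripts lower in CV than in ENR were Utp23 (-0.71), Dkc1 (-0.68), Npm1 (-0.66), Rrp36 (-0.61) and Nop56 (-0.27). Npm1 had 998, 991, 1025 and 904 CPM in CV and 1580, 1568, 1516 and 1534 in ENR, with no overlap. Without Npm1 the members summed to 2629 to 2727 TPM in CV, 2196 to 2219 TPM in ENR and 744 to 843 TPM in EN. On TPM, the near-equal sums of CV and ENR thus hid a lower Npm1 and a higher remainder in CV. On the deposited copy numbers the sums of all members overlapped, at 2240 to 3196 in CV and 1765 to 4893 in ENR. The calls of Pes1 and Nop2 in CV against ENR were weak. Pes1 lost its call on leaving out CV replicate 1, 2 or 3 or any 1 of the ENR libraries, with an adjusted p of 0.0112 to 0.0253. Nop2 lost its call on leaving out any 1 CV library, ENR replicate 2, 3 or 4 or EN replicate 1, with an adjusted p of 0.0104 to 0.0320. Nop16 lost its call without CV replicate 2 (adjusted p = 0.0112) and Utp3 without ENR replicate 2 (adjusted p = 0.0101).

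Ratios between partners of a particle differed between the cultures for 4 of 5 pairs. The ratio of Nop10 to Dkc1, both in TPM, was 5.16, 5.10, 5.59 and 5.94 in CV, 2.45, 1.95, 2.49 and 2.30 in ENR and 8.62, 8.12, 9.12 and 9.08 in EN. The 3 cultures did not overlap, and the ratio was lowest in ENR and highest in EN. The ratio of Bop1 to Wdr12 was 0.868 to 1.03 in CV, 0.620 to 0.734 in ENR and 4.03 to 4.72 in EN. For Bop1 to Pes1 it was 0.563 to 0.639 in CV, 0.400 to 0.459 in ENR and 0.992 to 1.44 in EN. The ratio of Nop56 to Nop58 was 0.376 to 0.487 in EN, below its values in CV (0.588 to 0.621) and in ENR (0.612 to 0.714). By contrast, the ratio of Imp3 to Imp4 was 2.45 to 2.94 in CV, 2.67 to 3.05 in ENR and 2.63 to 2.94 in EN, and all cultures overlapped. These pairs were chosen with their values in view, so the ratios are given as a description with no test.

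**Figure D4:**
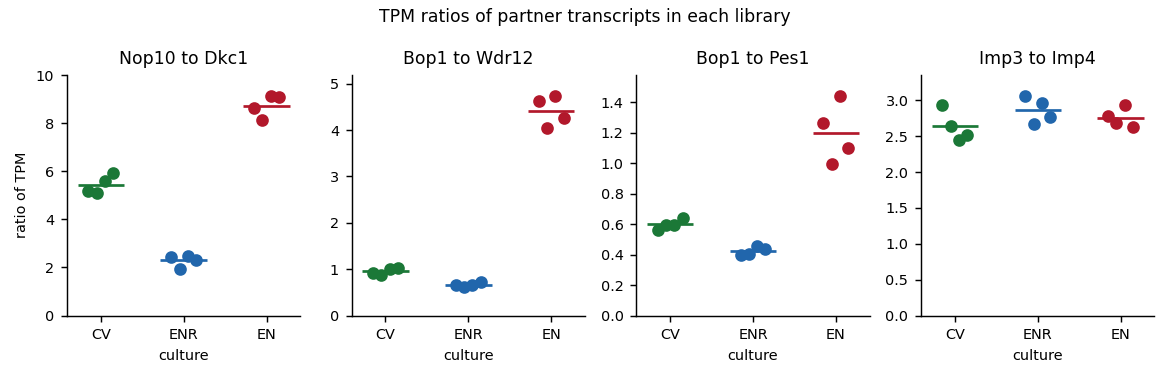
Ratio of the TPM of partner transcripts (y axes, without unit) in each library of CV, ENR and EN, with horizontal lines at the mean of 4. Nop10 to Dkc1 and the Bop1 ratios are highest in EN and lowest in ENR, whereas the ratio of Imp3 to Imp4 overlaps in all 3 cultures, between 2.45 and 3.05.

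Other ribosome assembly genes were mostly lower as well. A wider list of ribosome assembly genes, written from knowledge of the pathway and free of members, had 100 transcripts in the table, of which 89 were called lower and 5 higher in EN than in CV, with a median of -1.19, where 41.2% of all transcripts were called lower and 35.2% higher, with a median of -0.08. On the deposited copy numbers 42 of the 100 were called lower and 9 higher, with a median of -0.44 against 0.62 over all. All 32 further small subunit factors and all 16 transcripts for snoRNP assembly and the RNA exosome were called lower, and of RNA polymerase I and its factors 10 of 14 were lower and none higher. Of 38 further large subunit factors, 31 were lower and 5 higher. The largest falls were those of Gnl3, or nucleostemin, a nucleolar GTPase (-3.34, SE 0.084), Naf1, which assembles the H/ACA particle (-3.01, SE 0.28), and Polr1e, a subunit of RNA polymerase I (-2.95, SE 0.16).

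The largest rises in that list were those of Sbds (1.04, SE 0.069), Zfp622 (0.51, SE 0.075) and Eif6 (0.45, SE 0.039). With counts scaled to the spike-ins Sbds kept its call at 0.62 (adjusted p = 0.00245), whereas Zfp622 was 0.096 (adjusted p = 0.647) and Eif6 0.033 (adjusted p = 0.875), and neither of the latter was called with limma on log2(TPM + 1). On the deposited copy numbers Sbds, Zfp622 and Eif6 were each called higher with limma, at 1.92, 1.35 and 1.36. The median over all transcripts on that scale was 0.62. Sbds had 34.6, 35.8, 36.7 and 37.2 CPM in CV, 48.9, 45.3, 49.7 and 49.3 in ENR and 79.9, 79.4, 63.5 and 74.3 in EN, and no 2 cultures overlapped. Sbds is known to help release Eif6 from the new large subunit. For comparison, of 73 transcripts for cytosolic ribosomal proteins, 66 were called lower and 1 higher in EN than in CV, with a median of -0.60, beside the same 41.2%, 35.2% and -0.08 over all transcripts.

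Markers of dividing cells fell in the same libraries. Their 13 transcripts, for 11 of 11 genes listed and none at 0 in all libraries, summed to 1059 to 1095 TPM in CV, 1332 to 1385 TPM in ENR and 178 to 193 TPM in EN, all 13 were called lower in EN than in CV, and the median log2 fold change was -4.66. All 7 stem cell markers were lower as well, with a median of -4.50. The part of the proliferating and stem cells in the fall of the assembly factors was not tested. Proliferation markers were lower in CV than in ENR for 11 of 13 transcripts, with a median of -0.70, where the assembly factors had a median of 0.15.

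The start sites of the members were then examined for a change in chromatin. Of 51 genes, 50 were found in the mm9 annotation, and 49 had at least 1 of 66 regions of the authors' peak set within 500 bp of a start site. Values are the authors' normalized scores per region, compared with limma on log2(score + 1) across all regions of a dataset and called at an adjusted p under 0.05, and regions are given in mm9 with positions as deposited. For 16 genes the region also held the start of another coding gene.

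ATAC-seq measures open chromatin, and its calls at these start sites went both ways. In EN against CV, 11 of 66 regions were called higher and 9 lower, where 18.9% of all regions at a coding start site were called higher and 15.5% lower, and the median log2 difference of the 66 was -0.03, against 0.01 over all such regions. With quantile normalization the split was 1 higher and 16 lower, with a median of -0.17 against -0.14 over all such regions, so the direction depends on the scaling. Of all 16766 such regions, 1718 were called higher and 4007 lower with that normalization. The summed ATAC score over all regions was higher in each EN library (1993594 to 2109261) than in each CV library (1752385 to 1840402). The region of Utp18 (chr11:93746098-93748103), which also holds the start of Mbtd1, had scores of 178, 169, 174 and 163 in CV, 152, 149, 155 and 179 in ENR and 113, 96, 97 and 105 in EN. It was lower in EN than in CV and ENR without overlap, by 0.73 on the log2 scale (SE 0.094, adjusted p = 9.19e-06), and its adjusted p stayed under 0.05 without any 1 library. H3K27ac at the same region went the other way and was called higher in EN than in CV, at 0.58 (log2). That H3K27ac call was lost in 6 of the limma fits without 1 library (adjusted p up to 0.162). With quantile normalization the H3K27ac difference was -0.11 and not called. The largest fall was that at Rrp12 (chr19:41969750-41970831), at -1.15 (SE 0.31), with low scores of 17, 23, 25 and 18 in CV, 17, 18, 14 and 16 in ENR and 3, 12, 12 and 12 in EN.

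At some start sites the ATAC score and the RNA had opposite directions. At Rrp15, the member whose RNA fell most, the region at the start site (chr1:188572109-188573738) had ATAC scores of 54, 50, 40 and 67 in CV, 62, 66, 89 and 83 in ENR and 86, 75, 70 and 58 in EN. The score was higher in EN than in CV by 0.46 (SE 0.17, adjusted p = 0.0408), with overlap, and the call was lost without CV replicate 1, 2 or 3 or EN replicate 1, 2 or 3 (adjusted p = 0.0590 to 0.148). Higher ATAC scores beside a fall in RNA were also called at Rrs1 (0.51, SE 0.10) and Rrp9 (0.55, SE 0.11), and with quantile normalization both were smaller and not called, at 0.14 and 0.25. At Utp23, whose RNA rose most, the ATAC scores at chr15:51708712-51709863 were 112, 95, 90 and 100 in CV, 84, 84, 113 and 117 in ENR and 130, 98, 136 and 127 in EN, a log2 difference of 0.30 that was not called (adjusted p = 0.101). At Npm1, the most abundant member, those at chr11:33061500-33063576 were 218, 169, 167 and 153 in CV, 169, 167, 178 and 160 in ENR and 201, 180, 211 and 213 in EN, also with no call (0.20, adjusted p = 0.160). Over the 49 genes with the region nearest to the start site, the log2 difference of ATAC and that of RNA had a Pearson's r of 0.146 and a Spearman's rho of 0.044, as a description across genes, which share libraries and are not independent.

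H3K27ac, a mark of active promoters and enhancers, was called higher at 5 of the 66 regions and lower at 3 in EN against CV, where 16.1% of all regions at a coding start site were called higher and 3.59% lower. The median was -0.02 (log2), against 0.17 over all regions at a coding start site. With quantile normalization 1 was higher and 20 lower, with a median of -0.27 against -0.06 over all regions at a coding start site. Of those 16778 regions, 928 were called higher and 950 lower with that normalization. The balance of H3K27ac calls at the members thus depends on the scaling. At Rrp1b (chr17:32172943-32174522) the scores were 80, 90 and 84 in CV, 86, 80 and 95 in ENR and 24, 32 and 32 in EN. EN lay below both other cultures without overlap, at -1.51 on the log2 scale against CV (SE 0.30, adjusted p = 0.00130), and the ATAC score of the same region fell by 0.71 (SE 0.22), a call that was lost without CV replicate 3 or EN replicate 3 (adjusted p = 0.0552 and 0.0588). Rrs1 showed the opposite of its ATAC score, with H3K27ac scores of 90, 26 and 60 in CV, 63, 37 and 43 in ENR and 12, 19 and 19 in EN.

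At Rrs1 the difference was -1.62 (log2, SE 0.43, adjusted p = 0.0157), and it lost its call without CV replicate 3 or 5 or any 1 EN library (adjusted p = 0.0601 to 0.108). The clearest gain of H3K27ac was at Nol4l (chr2:153269349-153270815), one of the 3 members whose RNA rose from CV to EN, with scores of 66, 67 and 82 in CV, 86, 127 and 90 in ENR and 162, 188 and 213 in EN and a log2 difference of 1.37 (SE 0.24). The H3K27ac calls were fragile. None of the 66 regions was called when limma ran without its mean-variance trend. None was called either with replicate numbers as a block, but these numbers differ between the cultures. That block thus leaves little to estimate the spread from, and its loss of calls says little. The count of 8 calls dropped to 4 without CV replicate 4, 5 without CV replicate 5, 5 without ENR replicate 4, 4 without EN replicate 2 and 2 without EN replicate 3 or 4.

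For H3K4me3, a mark of promoters, none of the 66 regions was called by limma, where 9.71% of regions at a coding start site were called, 4.28% higher and 5.43% lower, and the median log2 difference was -0.04. At an unadjusted p under 0.05 it differed at 10 of the 66 regions, and at 33.6% of all regions at a coding start site. At Rrp15 the H3K4me3 scores were 57, 82 and 79 in CV, 73, 81 and 82 in ENR and 55, 59 and 95 in EN, and all 3 cultures overlapped. H3K27me3, a repressive mark, had low median scores of 6.33 in CV, 4 in ENR and 8.67 in EN at the nearest regions. The median log2 difference of the 66 regions between EN and CV was 0.35, against 0.21 over all regions at a coding start site. With quantile normalization it was 0.11 against 0.03. H3K27me3 was called at a single region, near a start site of Nol4l (chr2:153354088-153355208), where 0.363% of regions at a coding start site were called, 0.286% higher and 0.0774% lower. The scores there were 22, 16 and 48 in CV, 156, 142 and 431 in ENR and 182, 70 and 80 in EN, and the call was lost without CV replicate 1 or 2 or EN replicate 1 or 4 (adjusted p = 0.0840 to 0.288). Across the 49 genes, the change in RNA had a Pearson's r of 0.346 with that of H3K27ac, 0.409 with H3K4me3 and 0.036 with H3K27me3, again as a description. Spearman's rho was 0.296, 0.283 and 0.104 in the same order.

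**Figure D5:**
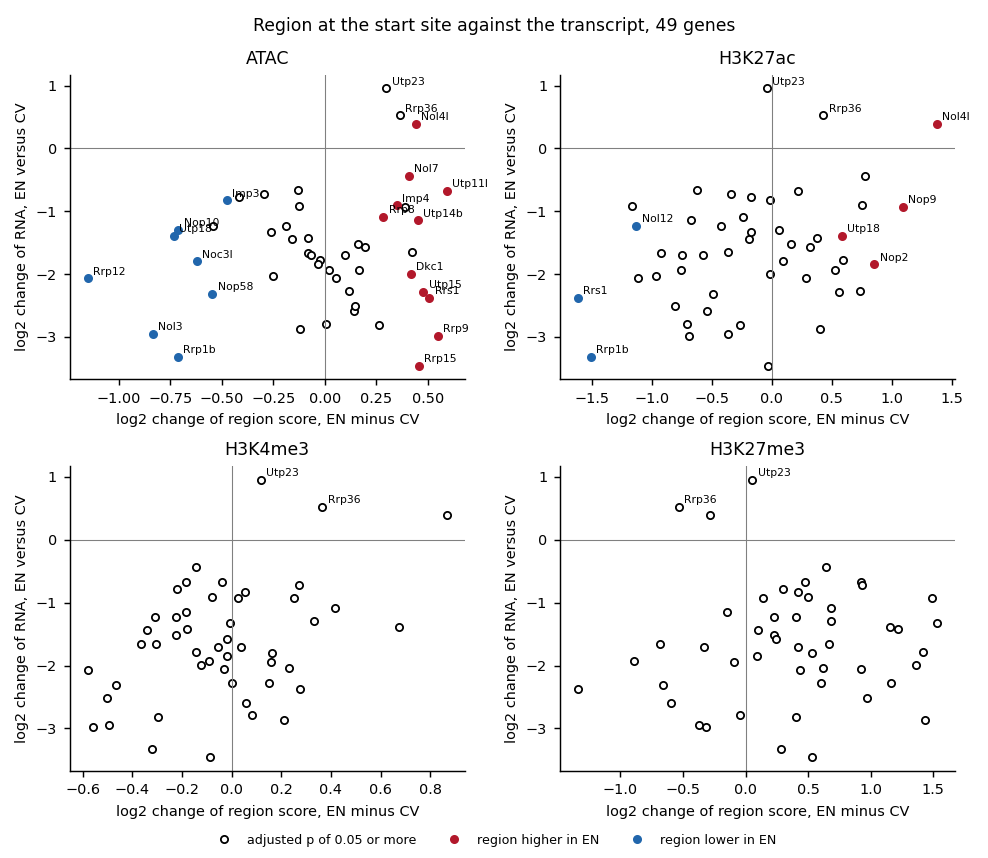
Log2 difference of the score of the region nearest to the start site, EN minus CV (x axes), against the log2 fold change of the transcript, EN versus CV (y axes), for 49 genes and each of ATAC, H3K27ac, H3K4me3 and H3K27me3. Red and blue points are regions called higher and lower in EN. The points spread to both sides of 0 on the x axes while nearly all lie below 0 on the y axes.

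The sequences before the start sites of Rrp15, the member with the largest fall, and of Rrp1b and Utp18, chosen after their values were seen because their regions lost H3K27ac or open chromatin, are shown for 250 bases each. They are given 5′ to 3′ on the strand of the gene, from RefSeq windows on GRCm38.p6, which is another build than that of the regions. They lie at chr1:186749359-186749608 on the minus strand, chr17:32035912-32036161 on the plus strand and chr11:93885767-93886016 on the minus strand. Capitals mark a match to a motif searched, here 1 CACGTG before Utp18.
Rrp15: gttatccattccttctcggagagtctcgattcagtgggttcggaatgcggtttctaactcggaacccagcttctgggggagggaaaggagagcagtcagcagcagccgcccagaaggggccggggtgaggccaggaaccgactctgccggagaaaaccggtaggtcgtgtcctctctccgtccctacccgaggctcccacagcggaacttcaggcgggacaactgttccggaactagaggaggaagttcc
Rrp1b: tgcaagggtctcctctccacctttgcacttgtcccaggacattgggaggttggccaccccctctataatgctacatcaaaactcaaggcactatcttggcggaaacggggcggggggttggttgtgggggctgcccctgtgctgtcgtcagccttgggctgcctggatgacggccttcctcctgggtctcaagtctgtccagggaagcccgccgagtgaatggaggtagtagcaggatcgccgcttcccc
Utp18: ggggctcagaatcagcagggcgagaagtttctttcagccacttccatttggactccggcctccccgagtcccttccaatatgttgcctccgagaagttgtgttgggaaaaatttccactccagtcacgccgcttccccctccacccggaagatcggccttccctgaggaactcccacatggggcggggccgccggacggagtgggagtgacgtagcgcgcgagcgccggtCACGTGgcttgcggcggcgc

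Windows of 250 bases before to 50 after the start were found for 40 of the 51 genes, 48 windows in all, and compared with 9206 windows of 7239 genes in the RNA table. The motif CACGTG, the E-box read by Myc and its partner Max and the same on both strands, was in 8 windows of 8 genes, 16.7% of the windows, against 10.45% of all windows. The ETS site CCGGAAGT, searched on both strands, was in 9 windows of 8 genes, 18.8% against 8.70% of all, and TATAAA in 5 windows of 5 genes, 10.4% against 7.78%. The palindromic CGCG site was in 2 windows of 1 gene, Nol9, 4.2% against 1.13% of all. Windows of a gene can overlap and hold the same site. The sites of NRF1 and YY1 were in none of the 48, against 2.15% and 1.75% of all. The median GC content was 59.3% in the windows of members and 60.7% in all. The 8 genes with an E-box are shown with up to 12 bases on either side and the motif in capitals.
Imp4: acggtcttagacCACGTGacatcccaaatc
Nol11: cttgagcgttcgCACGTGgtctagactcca
Nop2: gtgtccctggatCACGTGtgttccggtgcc
Pes1: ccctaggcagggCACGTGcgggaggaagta
Rrp7a: gtgcctgtgcacCACGTGtcctggaactgg
Utp14b: cgcgggcgcgggCACGTGggtggggtcgtc
Utp18: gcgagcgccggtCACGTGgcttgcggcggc
Utp20: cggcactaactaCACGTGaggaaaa

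These stretches lie, in the same order, at chr1:34439696-34439725, chr11:107189407-107189436, chr6:125131811-125131840, chr11:3963965-3963994, chr15:83122992-83123021, chr1:78658365-78658394, chr11:93885769-93885798 and chr10:88826765-88826789 of GRCm38.p6. The motif began between 208 bases before the start (Rrp7a) and 37 bases after it (Utp20). All 8 transcripts were called lower in EN than in CV, with log2 fold changes of -2.79 to -0.78 and a median of -1.41. The 33 transcripts of genes with a window and no E-box had a median of -1.70, and 30 of them were called lower. A match of letters is a description and not a site that was measured.

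A ChIP-seq table for Hnf4g, a transcription factor of the enterocyte, had 1 library per culture, so it gives no test. At the 66 regions it held 106 of 84340 reads in CV (0.126%, exact 95% interval 0.103% to 0.152%), 394 of 352600 in ENR (0.112%, 0.101% to 0.123%) and 2739 of 1816497 in EN (0.151%, 0.145% to 0.157%), intervals that cover counting error only. Regions at all coding start sites together took 36.3%, 38.5% and 55.3% of the reads. Per region, members had 1.61, 5.97 and 41.5 reads and all regions at a coding start site 1.82, 8.09 and 59.9.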

How the data were processed

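RNA-seq, ATAC-seq and ChIP-seq of the organoids were deposited as tables of the whole series. For RNA, the authors depleted ribosomal RNA, added ERCC spike-ins and quantified strand-specific reads with kallisto (0.43.0 per the submitters' processing notes, another patch release per the paper's methods) on transcripts of proteins seen by mass spectrometry, and deposited expected counts (estimated reads, unscaled), TPM and copies derived from the spike-ins, a value of another kind. A transcript outside that index was not analysed here. For chromatin, the authors aligned reads to mm9 with BWA, called peaks with MACS2 and deposited scores for the merged peaks, normalized between libraries and rounded, and raw read counts for Hnf4g. Whether region starts count from 0 or 1 is not given in the sources used here.

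Groups came from the sample titles. The members, gene lists and tests were chosen with earlier results of these data known. Every member may be named. Of the wider list the 3 largest rises and falls were named, and regions were named for the members with the largest fall, the largest rise and the highest TPM, others after their values were seen.

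Expected counts were rounded and tested with edgeR 4.0.16 (TMM, quasi-likelihood F-test, adjusted p under 0.01, spike-ins left out) in R 4.3.3. Scores were tested with limma 3.58.1, with its mean-variance trend, on log2(score + 1). On simulated counts for EN versus CV with 200 of 9276 transcripts changed 2-fold, 95.5% were recovered with 0 false calls. The simulation gave all transcripts a common spread and changed few of them. In the data 76.4% of transcripts were called, so the simulation does not gauge false calls there. Alternatives were TMM against RLE and spike-in scaling, DESeq2 1.42.0, limma on TPM and copies, filters, thresholds, the replicate block and leaving out each library. Replicate numbers were not taken to pair the libraries, since not every same-number correlation passed 0.1. Another 10 histone libraries were not analysed here.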

Additional observations from a re-analysis of the deposited data

Results flagged for a closer look

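In 12 of 156 groups of 4 libraries, 1 library of a member stood far from the other 3 by Dixon's test at the 95% level, which chance passes in about 1 of 20 groups. Nhp2 had 12.7 CPM in EN replicate 3 and 14.4 to 14.6 in the others. Noc2l had 162 CPM in CV replicate 4 and 144 to 146 in the others. Pes1 had 36.0 CPM in EN replicate 3 and 48.0 to 50.0 in the others. Rrp1 (XM_006513338.2) had 6.99 CPM in CV replicate 4 and 0 in each of the others. Rrp15 had 60.9 CPM in ENR replicate 2 and 54.1 to 54.4 in the others. Rrp8 had 24.1 CPM in ENR replicate 1 and 26.998 to 27.2 in the others. Bysl had 11.9 CPM in ENR replicate 2 and 13.5 to 13.6 in the others. Nol6 had 25.1 CPM in CV replicate 1 and 20.5 to 21.2 in the others. Nol7 had 94.3 CPM in ENR replicate 4 and 98.7 to 99.3 in the others. Rrp7a had 111 CPM in CV replicate 4 and about 101 in the others. Utp14b had 15.5 CPM in EN replicate 3 and 20.8 to 21.7 in the others. Utp18 had 71.3 CPM in CV replicate 3 and 63.3 to 64.3 in the others. In none of these members did leaving out the library end a call for EN versus CV.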

How the results depend on the processing

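For EN versus CV, the calls of all members were the same without any 1 library, with RLE size factors, DESeq2, no filter on low counts and the replicate block. On limma with copies, 32 members (EN versus CV) and 24 (EN versus ENR) were called, against 51 and 47, and for CV versus ENR 8 were called with spike-in scaling, 5 on copies and 2 at a log2 fold change of at least 1, against 23. In the wider list the counts were 51 on copies and 61 at that fold change for EN versus CV, against 94, 42 on copies for EN versus ENR, against 91, and 5 with spike-in scaling, 5 on copies and 1 at that fold change for CV versus ENR, against 47. For regions, ATAC gave 12 calls without the trend and 1 at the study's threshold, against 20. H3K27ac gave 0 without the trend, 21 with quantile normalization, 1 at the study's threshold and 0 with the replicate block, against 8. H3K27me3 gave 0 without the trend, 0 at the study's threshold and 0 with the replicate block, against 1, and H3K4me3 gave 6 with quantile normalization and 1 within 2000 bp, against 0. The cause of these changes was not tested. For the histone marks, whose replicate numbers differ between cultures, the replicate block leaves little to estimate the spread from. Calls lost with it there say little.

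Directions turned as follows. For EN versus CV, Nol4l was -0.034 with spike-in scaling, and on copies Bop1 was 0.087, Nol7 0.35, Utp11l 0.083 and Utp6 0.029. For EN versus ENR on copies, Utp14b was 0.47, Nol10 0.22, the main Rrp1 transcript 0.40, Bysl 0.10, Utp3 0.010, Nol7 0.40, Nop10 0.17, Utp11l 0.51, Nop9 0.49, Rrp7a 0.62, Imp3 0.30, Utp6 0.15, Imp4 0.41 and Nol12 0.23, none called, and Rrp36 was 0.91 and called (limma, adjusted p = 0.00152). H3K27ac at Utp18 was -0.11 with quantile normalization.

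Without 1 library at a time, 51 to 51 members were called for EN versus CV, 47 to 48 for EN versus ENR and 20 to 27 for CV versus ENR, and of the wider list 92 to 95, 91 to 92 and 40 to 50. Regions called ranged from 15 to 22 for ATAC, 2 to 9 for H3K27ac, 0 to 2 for H3K27me3 and 0 to 2 for H3K4me3. Libraries with the same replicate number correlated at -0.06 to 0.10 in RNA and 0.07 to 0.46 in ATAC, where all 12 were positive with a mean of 0.17 against -0.056 for other pairs. Not every value passed 0.1, so the numbers were not taken as pairs, though same-numbered ATAC libraries deviated together on average. With the number as a block, 51, 47 and 23 members were called, and 22 ATAC regions. Low counts limit Gar1, Nol3 and the second Rrp1 transcript.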

Other observations

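Genes of the Myc network, which reads the E-box, were found as 4 transcripts of Max, Mnt and Mga. Mnt, a repressor that pairs with Max, had 3.64, 4.40, 4.51 and 3.73 CPM in CV, 4.48, 6.05, 4.86 and 6.92 in ENR and 10.7, 7.49, 7.67 and 9.36 in EN, and was called higher in EN than in CV (1.12 on the log2 scale, SE 0.18) and in ENR (0.67, SE 0.18) by edgeR. Mga, another partner of Max, had 86.2, 82.9, 89.1 and 88.4 CPM in CV, 114, 113, 110 and 113 in ENR and 82.2, 79.9, 82.6 and 91.3 in EN, and was called lower in EN than in ENR (-0.42) and in CV than in ENR (-0.38), with -0.04 and no call for EN versus CV. Neither Max transcript was called in any of the 3 comparisons, and Myc itself was not analysed here.

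Cytosolic ribosomal proteins, the cargo of the assembly factors, were mostly lower in CV than in ENR. Of 73 transcripts, 54 were called lower and 2 higher in CV, with a median log2 fold change of -0.31, beside 29.8% lower and 30.2% higher over all transcripts, where the 52 assembly factor transcripts had a median of 0.15. Against ENR, 71 of the 73 were called lower in EN and 1 higher, with a median of -0.87, beside 37.2% lower and 35.5% higher over all. The difference between both lists was not tested.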
